A study of Mus musculus with 48 samples.

Results

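The genes described here are 40 mitosis and G2/M genes, chosen by name for their known roles in cell division and read from the count table of mouse dentate gyrus RNA. The choice was made with earlier results of these data known. All 40 were among the 55357 genes of the table, and all 40 passed the filter on low counts that left 21390 genes for testing. The study asked how transcription changes in the first days after an intrahippocampal injection of kainate, a glutamate receptor agonist that sets off status epilepticus (SE) and is followed by temporal lobe epilepsy. Polyadenylated RNA of the dorsal dentate gyrus was sequenced from both sides of 24 wild-type C57BL/6J mice, giving 48 libraries. The injected side is named the epileptogenic zone (EZ) and the opposite, uninjected side the peri-ictal zone (PIZ). Saline mice received the same unilateral injection without kainate. Mice were taken at day 3, 7 or 14, with 4 mice for each injection and day, so that the 12 groups of region, injection and day held 4 libraries each. Each group held 2 male and 2 female mice of 6 to 8 weeks per the series design, while the study's methods give a slightly older range, and the sex of single mice was not used here.

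Mitosis and G2/M genes act in a short stretch of the cell cycle. The kinase CDK1 and its cyclin partners drive entry into mitosis, Aurora and Polo-like kinases build the spindle, kinetochore proteins hold chromosomes to microtubules, the spindle checkpoint delays anaphase, and the anaphase-promoting complex ends mitosis by destroying cyclins and securin. Transcription of these genes is held down in resting cells by the DREAM complex and switched on in G2 by the MuvB core together with B-Myb and FOXM1, so their mRNAs are scarce in tissue where few cells divide. In the adult dentate gyrus the dividing cells include neural progenitors of the subgranular zone and oligodendrocyte precursors, and microglia and astrocytes can divide after seizures. In bulk tissue, a larger number of dividing cells and more mRNA in each dividing cell cannot be told apart.

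Library totals ran from 17762656 to 25712975 counts, with a median of 22108562.5. Levels are given as CPM, counts scaled to a common library total, on library sizes scaled by the TMM method. A differentially expressed gene (DEG) had, in the quasi-likelihood test of edgeR, an adjusted p below 0.01 together with a more than 1.5-fold change, fitted to all 48 libraries and adjusted over the 21390 genes. Log2 fold changes are given ± their standard error. The granule cell markers Prox1, Calb1, C1ql2, Dsp and Tdo2 were all tested, and their summed level lay between 377 and 831 CPM in the saline libraries. By Dixon's criterion for groups of 4, kainate mouse 27 at day 14, kainate mouse 38 at day 3 (PIZ) and kainate mouse 21 at day 7 (PIZ) stood apart from their group in the summed level of the members other than Anln. Saline mouse 29 had the highest sum of its group in the EZ at day 3 and kainate mouse 23 the lowest in the EZ at day 7, within that criterion.

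In saline tissue the members were scarce. On the RPKM scale, which is CPM divided by the exon length in kilobases and allows levels of different genes to be compared, the first in order in the EZ of saline mice at day 14 was Anln at 1.42 ± 0.44 RPKM (SD, n = 4). Racgap1 followed at 0.741 ± 0.16 RPKM. Nuf2 at 0.541 ± 0.036, Bub1b at 0.537 ± 0.16 and Plk1 at 0.505 ± 0.13 RPKM came next and differed from each other by less than their spread. Sgo1, the protector of centromeric cohesion, stood last at 0.0322 ± 0.013 RPKM. The order in the PIZ of the same mice also began with Anln, at 1.43 ± 0.26 RPKM, and ended with Sgo1. In the EZ at day 3 after kainate the order was led by Mki67 at 8.28 ± 3.7 RPKM, Top2a at 8.20 ± 3.4 RPKM and Ccna2 at 7.21 ± 3.0 RPKM, which again lay within their spread.

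The 39 members other than Anln had a summed level in the EZ at day 3 of 119 ± 50 CPM in saline mice and of 743 ± 313 CPM in kainate mice (SD, n = 4). At day 7 after kainate the sum in the EZ was 429 ± 240 CPM, against 59.5 ± 5.5 CPM after saline. By day 14 it was 93.8 ± 44 CPM after kainate and 52.6 ± 6.7 CPM after saline. In the PIZ the sum after kainate was 268 ± 32 CPM at first (day 3), then 98.3 ± 27 CPM (day 7) and 74.1 ± 26 CPM (day 14), and after saline it lay between 52.8 and 53.9 CPM as a mean at each day. Anln was left out of these sums because it made up a large part of them in saline tissue and did not follow the other members. That choice rests on these same data and makes the contrast with saline larger. With Anln the sums after saline and kainate were 136 ± 50 and 766 ± 321 CPM in the EZ at day 3. They were 80.7 ± 1.4 and 453 ± 251 CPM in the EZ at day 7, and 77.0 ± 3.9 and 285 ± 32 CPM in the PIZ at day 3.

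**Figure D1:**
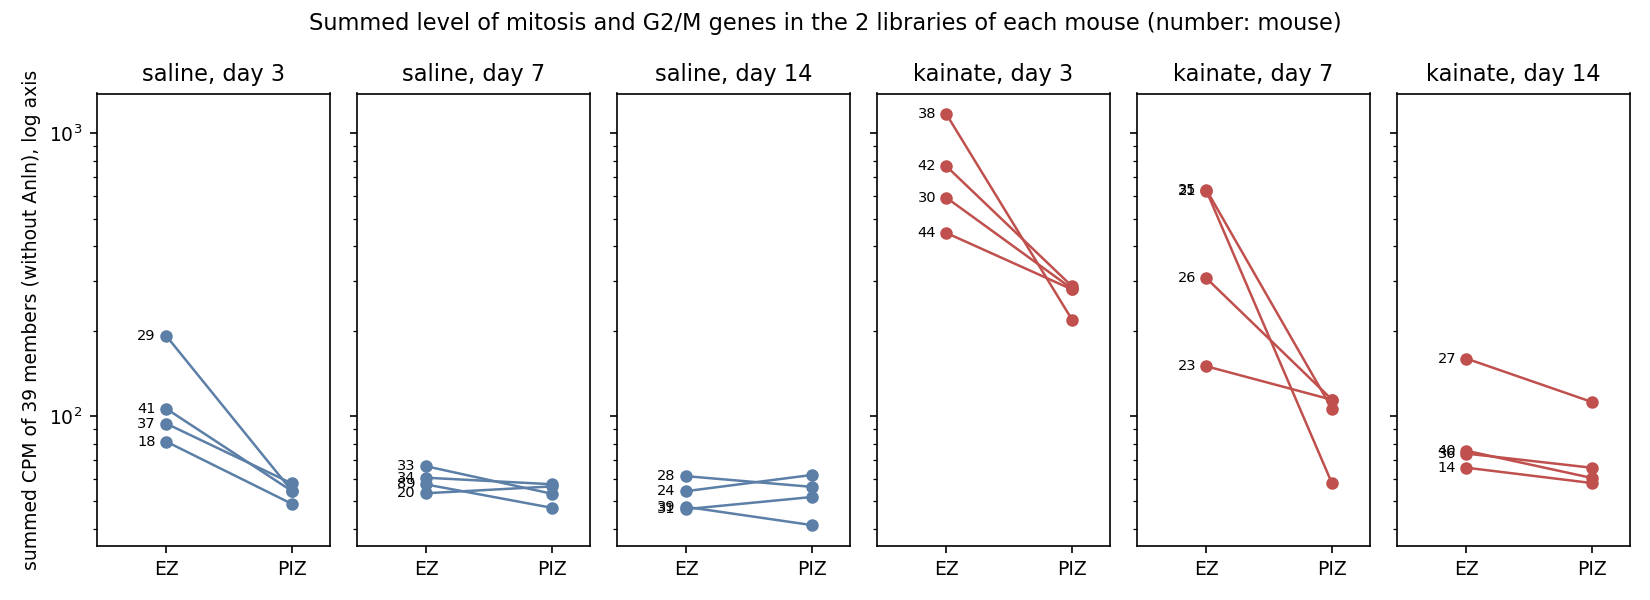
Summed CPM of the 39 members other than Anln (log axis) in the EZ and PIZ library of each mouse, joined by a line, for saline and kainate mice at days 3, 7 and 14; numbers name the mice, and there are 4 mice a panel. At day 3 after kainate the EZ libraries sit between 445 and 1170 CPM and the PIZ libraries between 220 and 288 CPM, and among saline mice the EZ library is the higher in all 4 mice at day 3, in 3 at day 7 and in 2 at day 14.

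Kainate against saline in the EZ at day 3 gave 39 of 40 members as upregulated DEG, where 16.1% of all genes tested were called up. The median log2 fold change of the members was 2.81, against 0.03 over all genes, and the range was 0.36 to 3.25. All 4 kainate libraries were above all 4 saline libraries for 39 members, a pattern that 23.9% of all genes showed. At day 7 in the EZ, 39 of 40 members were called up (20.6% of all genes), with a median of 2.97 and a highest value of 4.29. The libraries did not overlap for 37 members, against 23.7% of all genes. In the PIZ at day 3, 37 of 40 were called up (7.12% of all genes) at a median of 2.59, and 38 were higher in all 4 kainate libraries (17.1% of all genes). No member was called down in any of the 6 comparisons of kainate with saline. The counts stayed at 39 in the EZ at day 3, at 38 to 39 in the EZ at day 7 and at 36 to 37 in the PIZ at day 3 when single mice were left out.

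**Figure D2:**
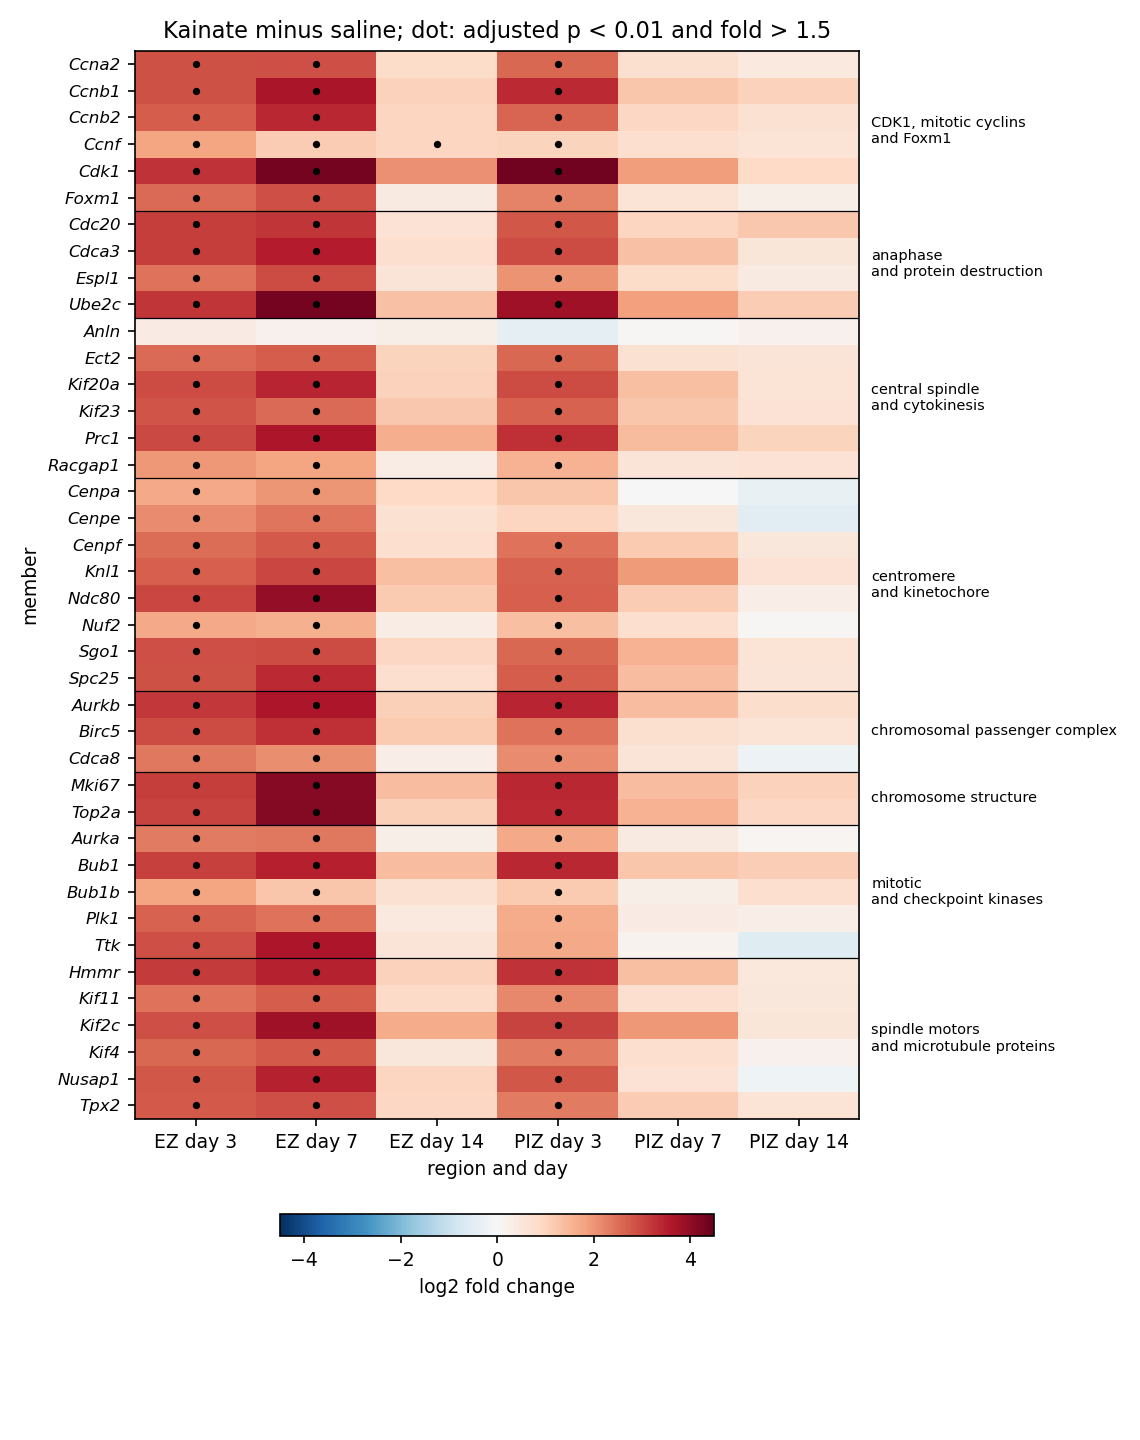
Log2 fold change of kainate minus saline for the 40 members (rows, grouped by role) in the EZ and PIZ at days 3, 7 and 14 (columns); a dot marks a DEG. The EZ columns of days 3 and 7 hold 39 dots each and the PIZ column of day 3 holds 37, while the EZ column of day 14 holds 1 and the last 2 columns hold none; Anln is the pale row without a dot.

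Because most members were called up together, the promoters of all were read for the elements known to act on G2/M genes. The CCAAT box is bound by NF-Y, and the cell cycle genes homology region, with TTTGAA as its usual sequence and TTTAAA as a variant, is bound by the MuvB core. The promoter table (RefSeq, GRCm38.p6, a different build from the GRCm39 of the counts) gave 37 promoters of 35 members, each from 250 bases before to 50 bases after the start. Aurkb, Ccna2, Foxm1, Tpx2 and Kif20a were not matched. Both strands were searched, which gave 117 matches over the 37 promoters, with 2 overlapping pairs of neighbouring matches. Ect2 and Prc1 each had more than 1 promoter, with overlapping windows, so their shared sites were counted in each. CCAAT stood in the promoters of 28 of 35 members (80%), against 41.1% of 27025 genes in the table, and 2 or more copies in 19 members (54.3%), against 13.3%. TTTGAA was present in 28 members (80%), against 20.2% of genes, and TTTAAA in 9 (25.7%), against 14.9%. CCAAT together with TTTGAA or TTTAAA stood in 26 of 35 members (74.3%), against 12.2% of all genes. These matches are a description of letters, not of bound sites.

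Of the members whose values are given library by library in at least 1 comparison, leaving out Mki67, which was added later, 13 had a sequence, and in the 200 bases upstream of the start 8 held at least 1 of these elements and 5 held none (Anln, Birc5, Knl1, Nuf2 and Nusap1). Shown here are 6 of the 8 and 2 of the 5, to show how the elements are placed. Bub1b, Ttk, Birc5, Knl1 and Nusap1 are not shown. Capitals mark CCAAT, which on the other strand reads ATTGG. They also mark TTTGAA, which on the other strand reads TTCAAA. The variant TTTAAA reads alike on both strands. Coordinates are of GRCm38.p6. Cdk1 lies at chr10:69352913-69353112 on the minus strand, Ccnf at chr17:24251410-24251609 on the minus strand, Cdc20 at chr4:118437344-118437543 on the minus strand, Top2a at chr11:99024190-99024389 on the minus strand, Plk1 at chr7:122159235-122159434 on the plus strand and Aurka at chr2:172370571-172370770 on the minus strand. Anln at chr9:22389207-22389406 on the minus strand and Nuf2 at chr1:169531465-169531664 on the minus strand are shown for contrast, as they hold none of the elements in this stretch.
Cdk1: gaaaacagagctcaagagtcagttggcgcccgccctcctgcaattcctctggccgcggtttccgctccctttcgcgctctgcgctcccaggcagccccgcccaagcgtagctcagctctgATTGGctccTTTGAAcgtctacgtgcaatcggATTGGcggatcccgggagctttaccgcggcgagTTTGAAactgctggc
Ccnf: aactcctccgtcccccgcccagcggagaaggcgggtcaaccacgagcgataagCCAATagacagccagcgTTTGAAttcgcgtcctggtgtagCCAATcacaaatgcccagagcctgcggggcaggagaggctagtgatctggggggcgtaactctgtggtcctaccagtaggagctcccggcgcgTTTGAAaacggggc
Cdc20: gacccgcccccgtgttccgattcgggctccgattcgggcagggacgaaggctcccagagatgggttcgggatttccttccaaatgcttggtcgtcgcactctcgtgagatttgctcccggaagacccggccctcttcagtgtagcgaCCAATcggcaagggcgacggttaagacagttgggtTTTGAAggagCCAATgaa
Top2a: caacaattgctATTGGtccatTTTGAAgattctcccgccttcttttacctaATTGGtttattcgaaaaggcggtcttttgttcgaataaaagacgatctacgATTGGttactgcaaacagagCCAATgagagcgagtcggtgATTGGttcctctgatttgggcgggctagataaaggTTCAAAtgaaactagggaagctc
Plk1: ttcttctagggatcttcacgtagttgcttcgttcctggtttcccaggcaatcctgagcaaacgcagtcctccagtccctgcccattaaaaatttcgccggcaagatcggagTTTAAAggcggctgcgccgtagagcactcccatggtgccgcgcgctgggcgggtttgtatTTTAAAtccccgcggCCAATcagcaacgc
Aurka: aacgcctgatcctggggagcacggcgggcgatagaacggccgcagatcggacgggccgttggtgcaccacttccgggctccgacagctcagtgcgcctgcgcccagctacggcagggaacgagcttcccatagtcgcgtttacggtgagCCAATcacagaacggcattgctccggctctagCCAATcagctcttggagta
Anln: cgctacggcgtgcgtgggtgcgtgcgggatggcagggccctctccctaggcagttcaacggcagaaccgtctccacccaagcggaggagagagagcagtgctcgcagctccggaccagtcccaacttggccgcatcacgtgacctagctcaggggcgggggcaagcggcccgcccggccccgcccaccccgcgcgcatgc
Nuf2: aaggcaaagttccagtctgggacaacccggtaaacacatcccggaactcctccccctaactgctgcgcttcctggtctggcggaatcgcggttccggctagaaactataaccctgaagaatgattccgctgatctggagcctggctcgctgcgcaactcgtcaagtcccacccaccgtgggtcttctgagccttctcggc
In Cdk1, Ccnf and Cdc20 a pair of CCAAT boxes (ATTGG in Cdk1) stands near a TTTGAA. Top2a carries 5 CCAAT boxes in this stretch, in both orientations. Plk1 has 2 TTTAAA and Aurka has 2 CCAAT boxes here, and the TTTGAA of both lies after the start. The full window of Anln holds 2 TTTGAA but no CCAAT, and those of Nuf2 and Nusap1, which rose after kainate, hold none of the searched letters.

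CDK1, the mitotic cyclins and Foxm1 make up the engine of mitotic entry, and all 6 were called up in the EZ at days 3 and 7 and in the PIZ at day 3. Cdk1, the mitotic kinase, read 1.25, 1.28, 2.44 and 5.04 CPM in the EZ of saline mice at day 3 and 14.9, 19.1, 24.9 and 36.6 CPM after kainate. The groups did not overlap, and the highest saline value belonged to mouse 29 and the highest kainate value to mouse 38. The log2 fold change was 3.25 ± 0.50 (adjusted p = 2.96e-06), a 9.53-fold rise. On the uninjected side at day 3, Cdk1 stood at 0.260, 0.340, 0.371 and 0.501 CPM after saline and at 6.79, 7.19, 7.21 and 8.73 CPM after kainate. Kainate values lay close together and far above saline, at a log2 fold change of 4.33 ± 0.60 (adjusted p = 3.47e-06), which was the highest of the members in the PIZ. In the EZ at day 7 the values were 0.424, 0.722, 0.919 and 1.09 CPM and 4.18, 9.71, 23.8 and 24.6 CPM. The lowest kainate library, of mouse 23, was still above every saline library, and the log2 fold change was 4.29 ± 0.55 (adjusted p = 7.46e-08).

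Ccna2, cyclin A2, read 2.43, 3.56, 3.64 and 6.66 CPM in the EZ after saline and 17.3, 26.1, 28.3 and 46.3 CPM after kainate at day 3. Its groups were separate, with a log2 fold change of 2.85 ± 0.38 (adjusted p = 4.11e-07). On the uninjected side at day 3 the 4 saline values of 1.53, 1.55, 1.56 and 1.80 CPM were nearly level, and the kainate values were 7.84, 9.88, 10.6 and 10.6 CPM, a log2 fold change of 2.59 ± 0.40 (adjusted p = 1.48e-05). The cyclins B1 and B2 (Ccnb1 and Ccnb2), the partners of CDK1 at mitotic entry, had log2 fold changes of 2.86 and 2.74 in the EZ at day 3, 3.68 and 3.40 in the EZ at day 7, and 3.35 and 2.61 in the PIZ at day 3. Foxm1, the transcription factor that raises G2/M genes, changed by 2.56, 2.91 and 2.22 on the log2 scale in the same comparisons. All 9 of these values passed the test.

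Ccnf, cyclin F, a substrate receptor of an SCF ubiquitin ligase, had smaller but tighter changes and the smallest p of the members in the EZ at day 3. It read 3.74, 4.43, 5.85 and 5.87 CPM after saline and 12.9, 16.2, 16.6 and 22.8 CPM after kainate, a log2 fold change of 1.78 ± 0.17 (adjusted p = 2.36e-09). At day 7 in the EZ the values were 4.08, 4.44, 4.85 and 5.21 CPM and 6.48, 10.8, 11.7 and 12.3 CPM. Again the groups were separate, at 1.15 ± 0.17 (adjusted p = 5.93e-07). On the uninjected side at day 3 it read 3.60, 4.46, 4.51 and 5.11 CPM and 7.52, 8.71, 9.26 and 10.1 CPM, at 1.01 ± 0.17 (adjusted p = 4.84e-05). Ccnf was the sole member whose 4 kainate libraries lay above its 4 saline libraries in all 6 comparisons. In single comparisons this held for 3.7% (PIZ, day 14) to 23.9% (EZ, day 3) of all genes. The share of all genes with the pattern in all 6 was not counted.

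The mitotic and checkpoint kinases build the spindle and hold anaphase back, and all 5 were called up in the 3 comparisons. Aurka, the Aurora A kinase of the spindle poles, stood at 1.32, 1.48, 1.66 and 2.52 CPM in the EZ of saline mice at day 3 and at 5.81, 6.96, 9.32 and 13.7 CPM after kainate. The groups were apart and the log2 fold change was 2.35 ± 0.26 (adjusted p = 2.11e-08). At day 7 the values of 0.847, 0.868, 0.877 and 1.09 CPM and 2.60, 3.35, 6.55 and 6.68 CPM gave 2.38 ± 0.28 (adjusted p = 2.84e-08). Plk1, the Polo-like kinase, read 1.37, 1.57, 1.80 and 2.79 CPM after saline and 7.11, 8.99, 11.9 and 19.0 CPM after kainate in the EZ at day 3. All kainate libraries were higher, at a log2 fold change of 2.64 ± 0.31 (adjusted p = 5.68e-08). On the uninjected side Plk1 read 1.04, 1.16, 1.32 and 1.70 CPM and 3.39, 3.89, 4.39 and 5.16 CPM, at 1.69 ± 0.32 (adjusted p = 0.000199).

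Ttk, the MPS1 checkpoint kinase, was among the least abundant members. In the EZ at day 7 it read 0.174, 0.188, 0.206 and 0.255 CPM after saline, from 4 or 5 counts a library, and 0.612, 1.75, 3.98 and 3.998 CPM after kainate. The kainate values spread widely but did not meet saline, at a log2 fold change of 3.63 ± 0.43 (adjusted p = 3.42e-08). Ttk also rose at day 3, by 2.88 on the log2 scale on the injected side and by 1.72 on the other. Bub1b, the checkpoint protein BUBR1, had the higher saline level and the smaller change. It read 3.31, 3.87, 5.52 and 7.92 CPM and 12.7, 13.0, 19.99 and 25.7 CPM in the EZ at day 3, at 1.79 ± 0.31 (adjusted p = 1.9e-05). Its groups overlapped in the EZ at day 7, with 3.34, 4.05, 4.70 and 5.56 CPM after saline and 4.95, 7.02, 14.3 and 15.6 CPM after kainate, although the test called it up at 1.25 ± 0.32 (adjusted p = 0.000924). Bub1, the partner kinase of the checkpoint, changed by 3.09 in the EZ at day 3 and by 3.40 in the PIZ at day 3.

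The chromosomal passenger complex, which corrects faulty kinetochore attachments, was represented by Aurkb (its kinase), Birc5 (survivin) and Cdca8 (borealin), and all 3 were called up. Birc5 read 1.15, 1.28, 1.75 and 3.06 CPM after saline and 8.46, 11.1, 14.5 and 21 CPM after kainate in the EZ at day 3, with no overlap and a log2 fold change of 2.92 ± 0.39 (adjusted p = 3.45e-07). On the uninjected side the values were 0.583, 0.743, 0.867 and 0.957 CPM and 3.35, 4.15, 4.75 and 4.996 CPM, at 2.44 ± 0.41 (adjusted p = 5.14e-05). Aurkb changed more, by 3.18 in the EZ at day 3, 3.63 in the EZ at day 7 and 3.44 in the PIZ at day 3. Cdca8 changed by 2.38, 2.10 and 2.14.

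Of the 8 centromere and kinetochore genes, all were called up in the EZ at days 3 and 7 and 6 in the PIZ at day 3. Nuf2, of the NDC80 complex that grips microtubules, read 3.35, 3.97, 5.89 and 6.12 CPM and 10.9, 12.1, 15.1 and 24.6 CPM in the EZ at day 3. The groups were separate but the change was among the smallest, at 1.70 ± 0.27 (adjusted p = 5.08e-06). Ndc80 and Spc25, subunits of the same complex, changed by 3.01 and 2.86. Knl1, the kinetochore scaffold, read 0.279, 0.501, 0.563 and 0.583 CPM in the PIZ of saline mice at day 3 and 2.87, 3.15, 3.16 and 3.19 CPM after kainate. Mouse 38 again gave the lowest kainate value, but no saline library came near it, and the log2 fold change was 2.67 ± 0.37 (adjusted p = 4.02e-06). Cenpa, the centromeric histone, and Cenpe, a kinetochore motor, were not called in the PIZ, at 1.26 ± 0.40 (adjusted p = 0.0201) and 0.97 ± 0.32 (adjusted p = 0.0249). In the EZ at day 3 they were called at 1.69 and 2.13. Cenpf, a large kinetochore protein, and Sgo1 were called in the 3 comparisons, Cenpf at 2.51, 2.77 and 2.46 and Sgo1 at 2.88, 2.92 and 2.59.

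All 6 spindle motors and microtubule proteins were called up in the 3 comparisons. Tpx2, which activates Aurora A on spindle microtubules, read 2.87, 3.41, 3.69 and 7.02 CPM and 15.7, 20.8, 30.8 and 48.1 CPM in the EZ at day 3, at 2.76 ± 0.34 (adjusted p = 1.08e-07). Nusap1, a microtubule-bundling protein, had the smallest p of the members in the EZ at day 7. It stood at 0.206, 0.895, 1.02 and 1.17 CPM after saline and at 3.62, 6.32, 13.1 and 13.7 CPM after kainate. The groups were well apart, at a log2 fold change of 3.46 ± 0.40 (adjusted p = 2.77e-08). The kinesins Kif11, Kif2c and Kif4 and the hyaluronan-mediated motility receptor Hmmr changed by 2.44, 2.89, 2.60 and 3.13 in the EZ at day 3.

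In the group of the central spindle and cytokinesis, 5 of 6 genes were called up in the 3 comparisons, and Anln was not. Kif20a, a kinesin of the central spindle, read 0.583, 0.693, 0.729 and 0.743 CPM in the PIZ after saline and 4.20, 5.68, 5.69 and 5.75 CPM after kainate at day 3. Mouse 38 gave the lowest kainate value, and the groups were far apart at 2.94 ± 0.42 (adjusted p = 4.36e-06). Prc1, the bundler of antiparallel microtubules, Kif23 and Racgap1, which form centralspindlin, and Ect2, the exchange factor for RhoA, changed by 2.96, 2.81, 1.96 and 2.53 in the EZ at day 3.

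Anln, anillin, is a scaffold of the contractile ring and is also made by myelinating oligodendrocytes. It read 14.1, 14.9, 16.8 and 24.4 CPM in the EZ of saline mice at day 3 and 14.1, 19.7, 23.6 and 32.9 CPM after kainate. These ranges overlapped, and the log2 fold change was 0.36 ± 0.30 (adjusted p = 0.323), the largest p of the members. In the PIZ at day 3 the saline values of 21.4, 21.7, 22.9 and 26.1 CPM all lay above the kainate values of 16.1, 16.7, 17.6 and 18.1 CPM, yet the change of -0.43 ± 0.30 (adjusted p = 0.307) did not pass the test. Over the 48 libraries, Anln had a Pearson r of 0.27 with the mean log2 CPM of the other members, where the next lowest member, Bub1b, had 0.88. These correlations describe libraries that share depth and dissection and carry no test.

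Anaphase and protein destruction were represented by Cdc20, Ube2c, Cdca3 and Espl1, which are the activator, the ubiquitin-conjugating enzyme and a trigger of mitotic entry tied to the anaphase-promoting complex, and separase. All 4 were called up in the 3 comparisons. Cdc20 read 0.738, 0.971, 1.32 and 2.34 CPM in the EZ after saline and 7.37, 8.49, 13.2 and 17.8 CPM after kainate at day 3, without overlap, at 3.12 ± 0.47 (adjusted p = 2.51e-06). At day 7 the values were 0.408, 0.612, 0.955 and 0.980 CPM and 2.14, 4.25, 10.4 and 11.1 CPM, at 3.23 ± 0.50 (adjusted p = 1.48e-06). Ube2c reached the highest log2 fold change of the members in the EZ at day 7, 4.29 ± 0.55 (adjusted p = 6.35e-08), level with Cdk1.

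Top2a, the topoisomerase that untangles sister chromatids, and Mki67, which coats mitotic chromosomes and encodes the Ki-67 antigen, were called up in the 3 comparisons. Top2a read 4.94, 6.64, 7.89 and 17.2 CPM in the EZ of saline mice at day 3 and 43.7, 60.5, 78.0 and 117 CPM after kainate. Saline mouse 29 held the highest saline value, and the groups did not meet. The log2 fold change was 3.02 ± 0.45 (adjusted p = 2e-06). In the EZ at day 7 the values were 1.68, 2.37, 2.50 and 2.87 CPM and 11.4, 29.8, 61.2 and 63.7 CPM, with mouse 23 lowest after kainate, at 4.13 ± 0.49 (adjusted p = 3.56e-08). In the PIZ at day 3 they were 1.21, 2.33, 2.92 and 3.03 CPM and 20.6, 24.3, 25.1 and 27.6 CPM, at 3.36 ± 0.48 (adjusted p = 5.25e-06). Mki67 changed by 3.09, 4.09 and 3.39 in the same order.

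**Figure D3:**
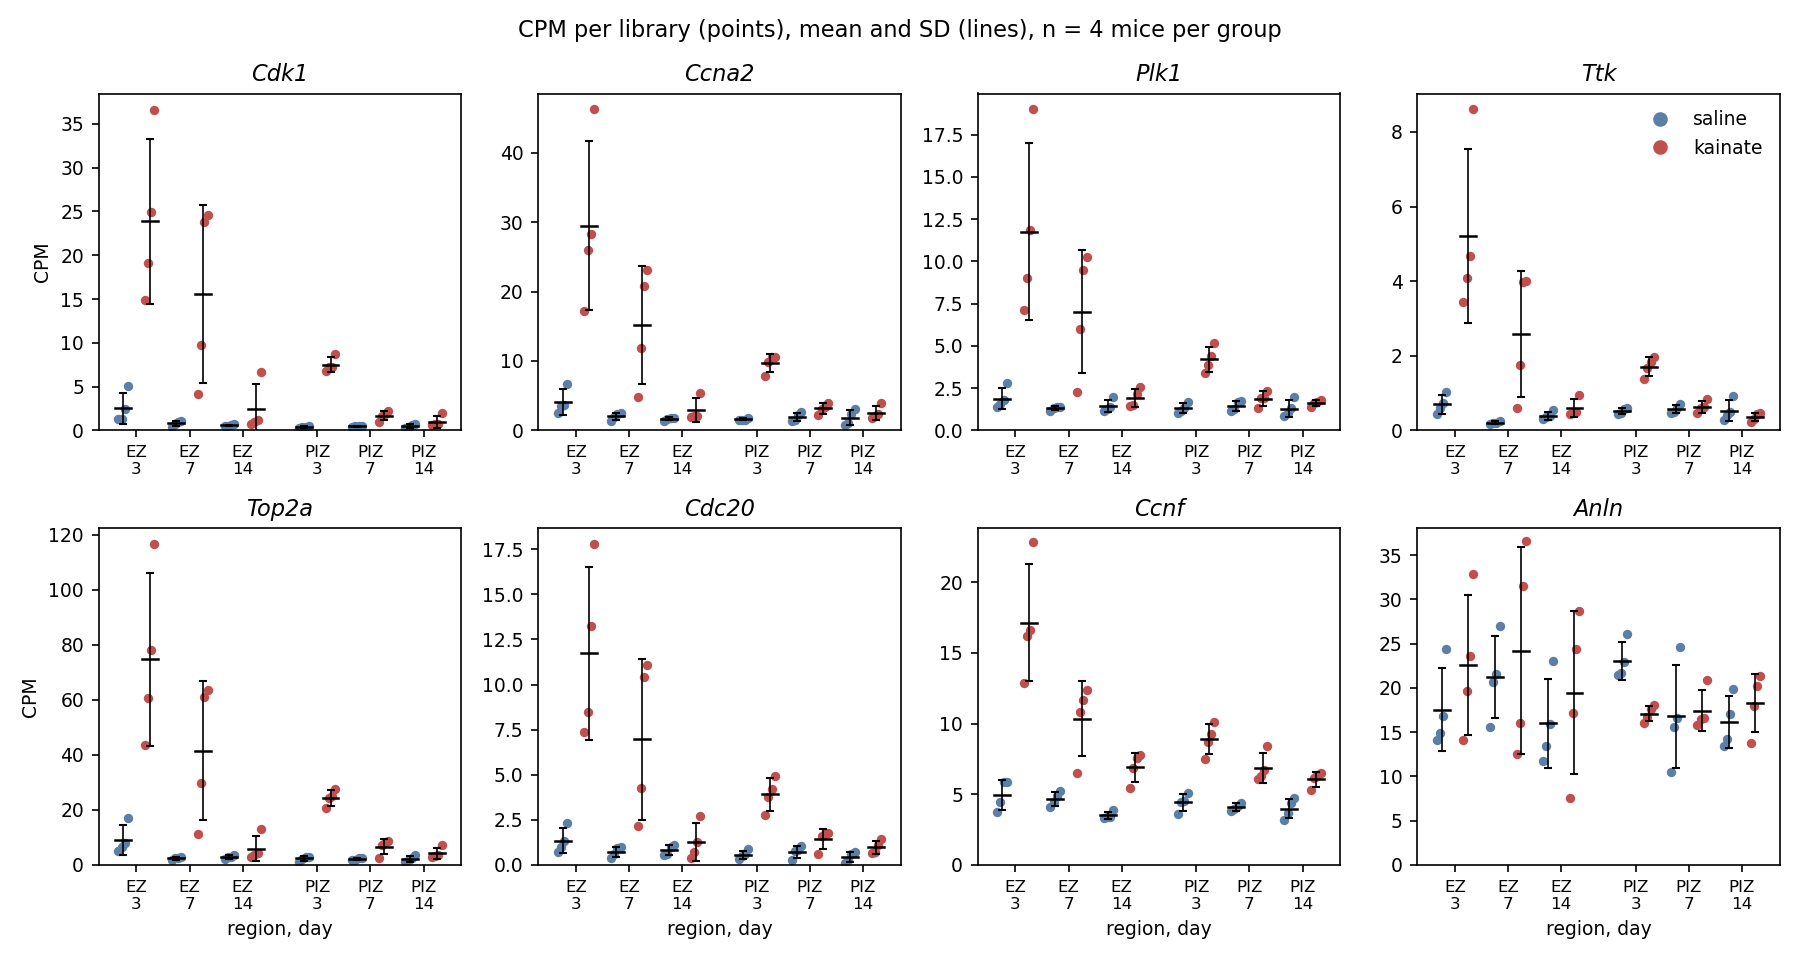
CPM of 8 members in every library (points), with the group mean and SD (lines), for the EZ and PIZ at days 3, 7 and 14; blue is saline, red is kainate, and n = 4 mice a group. Cdk1 reaches 36.6 CPM and Top2a 117 CPM in the EZ at day 3 after kainate, Ccnf stays above saline in every pair of groups, and the Anln groups overlap in the EZ.

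By day 14 few differences passed the test. In the EZ, 1 of 40 members was called up (2.32% of all genes), although all 40 had a log2 fold change above 0 (50.6% of all genes), with a median of 0.94, and 20 had an unadjusted p under 0.05 (18% of all genes). DESeq2 called 2 up (3.41% of all genes) and limma-voom 1 (0.159%), and at an adjusted p under 0.05 edgeR called 3 (4.64%). The median was 0.45 without kainate mouse 27. The member called at an adjusted p below 0.01 in edgeR was Ccnf, at 3.30, 3.39, 3.41 and 3.90 CPM after saline and 5.44, 6.86, 7.56 and 7.75 CPM after kainate. Its groups did not overlap, at 0.98 ± 0.17 (adjusted p = 0.000831), but the call was lost without kainate mouse 27, at a log2 fold change of 0.92 (adjusted p = 0.0277), without saline mouse 31, with glmTreat, or with only these 2 groups in the fit. The libraries of 9 members after kainate all lay above those after saline, against 4.58% of all genes. Cdk1 read 0.492, 0.543, 0.599 and 0.692 CPM and 0.674, 1.01, 1.17 and 6.71 CPM, the last value being that of mouse 27, and 2.05 ± 0.58 (adjusted p = 0.0295) did not pass the test. Without mouse 27 the log2 fold change of Cdk1 was 0.72. Mouse 27 had a summed level of 160 CPM for the 39 members in the EZ, against 65.8 to 75.5 CPM in the other 3 kainate mice of day 14. In the same 4 libraries the summed astrocyte and stem cell markers ran from 1846 to 8923 CPM and the microglia markers from 501 to 2755 CPM, and their part in the result was not tested.

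In the PIZ, edgeR called 0 of 40 members at day 7 (0.15% of all genes were called up), with a median log2 fold change of 0.95 and 22 members at an unadjusted p under 0.05 (14.5% of all genes). DESeq2 called 2 up (0.753% of all genes) and limma-voom with quality weights 5 (3.23%). The 2 members nearest to a call were Knl1, at 1.91 ± 0.44 (adjusted p = 0.0181), and Ccnf, at 0.75 ± 0.17 (adjusted p = 0.0193). All 4 kainate libraries exceeded all saline libraries for 12 members, against 7.63% of all genes. Kainate mouse 21 was the low one, with a sum of 57.9 CPM against 106 to 114 CPM in the other 3 mice, and 1 member was called without it. At day 14 edgeR, DESeq2 and limma-voom each called 0 members (0.00935% of all genes were called up by edgeR), 5 had an unadjusted p under 0.05 (5.97% of all genes), and 3 were higher in all kainate libraries (3.7% of all genes), namely Ccnf, Bub1b and Ect2.

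Whether the response differed between the sides was tested as the difference of the kainate effects, each measured against saline on its own side. At day 3 edgeR called 0 members (0.0655% of all genes in either direction), with a median difference of 0.24 on the log2 scale and 4 members at an unadjusted p under 0.05 (17.9% of all genes). DESeq2 called 0 (0.458%) and limma-voom 1 (8.78%). At day 7 the effect was larger in the EZ for 13 members (7% of all genes), with a median difference of 2.06 and 36 members at an unadjusted p under 0.05 (40.2% of all genes). These were Aurka, Birc5, Ccna2, Cenpe, Ect2, Espl1, Foxm1, Kif11, Mki67, Nusap1, Plk1, Top2a and Ttk. Ttk differed most, by 3.48 ± 0.61 (adjusted p = 0.00159), and Nusap1 by 2.80 ± 0.58 (adjusted p = 0.00203). With mouse as a block, 8 members were called (6.95% of all genes), namely Ccna2, Aurka, Plk1, Birc5, Cenpe, Nusap1, Ttk and Foxm1. The count depended on single mice, since leaving out a kainate mouse gave 31 (mouse 23), 20 (mouse 26), 2 (mouse 35) or 0 (mouse 21), and leaving out a saline mouse gave 1 to 5. It was 26 with DESeq2 (9.03% of all genes larger in the EZ), 32 with limma-voom (14.3%) and 2 with only these 4 groups in the fit (4.34%). In the kainate mice of day 7 the summed microglia markers ran from 1520 to 5460 CPM in the EZ and from 417 to 789 CPM in the PIZ. The astrocyte and stem cell markers ran from 7386 to 10251 CPM and from 1599 to 2647 CPM. Their part in the difference between the sides was not tested. At day 14 edgeR, DESeq2 and limma-voom called 0 members (0% of all genes in edgeR), and 2 had an unadjusted p under 0.05 (7.3% of all genes).

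The sides of the kainate mice were also compared directly, a comparison chosen after the data were seen. At day 3, 37 members were higher in the EZ (5.04% of all genes), with a median log2 difference of 1.49. In saline mice the median difference at this day was 1.27, with 0 members called by edgeR, 2 by DESeq2 and 1 by limma-voom. With mouse as a block 29 were called (5.75% of all genes), and the count fell to 18 without mouse 30, 4 without mouse 42 and 0 without mouse 38 or with only these 2 groups in the fit. At day 7, 39 members were higher in the EZ (18% of all genes), at a median of 2.25, and 34 to 39 without 1 mouse, but 8 with only these 2 groups in the fit (7.26% of all genes). At day 14 edgeR, DESeq2 and limma-voom called 0 members (2.01% of all genes in either direction in edgeR), with 6 at an unadjusted p under 0.05 (16% of all genes). Within mice, the sum of the 39 members in the EZ was 1.58 to 5.33 times that in the PIZ at day 3, 1.31 to 10.8 times at day 7 and 1.12 to 1.42 times at day 14, and it was the higher in all 12 kainate mice. At day 3 mouse 38 had the highest sum of its group in the EZ (1170 CPM) and the lowest in the PIZ (220 CPM), while at day 7 mouse 21 was second in the EZ (627 CPM) and lowest in the PIZ (57.9 CPM).

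In saline mice the 2 sides were compared in the same way, which sets injected against uninjected tissue without kainate. At day 3 Top2a read 4.94, 6.64, 7.89 and 17.2 CPM on the injected side and 1.21, 2.33, 2.92 and 3.03 CPM on the other. Mki67, added after its values were seen, read 5.78, 7.38, 8.62 and 18.01 CPM and 1.39, 1.90, 2.92 and 2.99 CPM. For both genes all injected-side libraries were the higher, and mouse 29 was the highest. The fitted differences were 1.95 ± 0.47 (adjusted p = 0.194) and 2.11 ± 0.49 (adjusted p = 0.136), and 1.44 and 1.57 without mouse 29. EdgeR called 0 members (0.0281% of all genes in either direction), DESeq2 2 (0.112%) and limma-voom 1 (0.463%). At the same time 39 of 40 log2 differences were above 0 (47.9% of all genes), and the median was 1.27, or 0.90 without mouse 29. An unadjusted p under 0.05 was found for 34 members (6.17% of all genes), and 25 had all injected-side libraries above all others, against 5.16% of all genes. Within the 4 saline mice of day 3 the sum of the 39 members on the injected side was 1.63 to 3.53 times that on the other, and 1.63 to 1.96 times without mouse 29. The summed astrocyte and stem cell markers ran from 2522 to 4974 CPM on the injected side of these mice and from 1242 to 1482 CPM on the other, and the microglia markers from 533 to 899 CPM and from 313 to 433 CPM. Their part in the difference between the sides was not tested. At days 7 and 14 edgeR, DESeq2 and limma-voom called 0 members between the sides of saline mice (0% and 0% of all genes in edgeR), with 3 and 1 at an unadjusted p under 0.05 (1.52% and 2.42% of all genes).

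The injected side of saline mice at day 3 was also compared with that at day 14. Here edgeR called 0 members (0% of all genes), DESeq2 0 (0.0187%) and limma-voom 8, all higher at day 3 (0.612%). The median log2 difference was 1.25, or 0.92 without mouse 29, and all 40 were above 0 (49.1% of all genes). An unadjusted p under 0.05 was found for 33 members (5.78% of all genes). Libraries did not overlap for 27 members, against 4.82% of all genes. On the uninjected side the same comparison gave 0 calls by edgeR, DESeq2 and limma-voom (0% of all genes in edgeR), a median of 0.01 and 1 member at an unadjusted p under 0.05 (2.43% of all genes). The summed microglia markers of the injected side ran from 533 to 899 CPM at day 3 and from 408 to 428 CPM at day 14, and the astrocyte and stem cell markers from 2522 to 4974 CPM and from 1444 to 1609 CPM. Their part in the difference was not tested.

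Over time, no change of the kainate effect in the EZ from day 3 to day 7 passed the test. EdgeR, DESeq2 and limma-voom called 0 members (0.145% of all genes in edgeR), with 1 member at an unadjusted p under 0.05 (12% of all genes) and a median difference of 0.32 on the log2 scale. From day 7 to day 14 the effect in the EZ dropped for 3 called members (0.15% of all genes were called down), with differences of -2.10 ± 0.40 (adjusted p = 0.00681) for Aurka, -2.50 ± 0.50 (adjusted p = 0.00844) for Foxm1 and -3.06 ± 0.63 (adjusted p = 0.00913) for Ttk. The median difference was -2.11, and 36 members had an unadjusted p under 0.05 (33.1% of all genes). The number of called members was 33 without kainate mouse 27 of day 14, 30 and 14 without kainate mice 23 and 26 of day 7, and 0 when any other single mouse of these groups was left out. DESeq2 called 23 down (2.53% of all genes) and limma-voom 36 (18.2%), while glmTreat, the fit without a filter and the fit to only the groups compared called 0. In the EZ after kainate the summed microglia markers ran from 1520 to 5460 CPM at day 7 and from 501 to 2755 CPM at day 14. The astrocyte and stem cell markers ran from 7386 to 10251 CPM and from 1846 to 8923 CPM. Their part in the fall was not tested. In the PIZ from day 3 to day 7, edgeR, DESeq2 and limma-voom called 0 members (0.0234% of all genes in edgeR), with a median difference of -1.57 and 31 members at an unadjusted p under 0.05 (10.6% of all genes).

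Other genes of the cell cycle were read from lists of the same kind of genes. Among 64 other mitosis genes, 49 were called up in the EZ at day 3, 46 up and 1 down (Cenpw) at day 7, and 37 up in the PIZ at day 3, with medians of 1.78, 1.66 and 1.11. Over all genes 16.1%, 20.6% and 7.12% were called up in these comparisons, and 11.9% down in the EZ at day 7. Ncapg2, a condensin II subunit, changed by 1.77 ± 0.19 (adjusted p = 1.76e-08) and Kifc1, a minus-end kinesin, by 2.38 ± 0.28 (adjusted p = 5.13e-08) in the EZ at day 3. Of 29 S phase genes, 27, 22 and 12 were called up in the same comparisons, with medians of 1.41, 1.13 and 0.57. Rrm1, the large subunit of ribonucleotide reductase, changed by 1.41 ± 0.15 (adjusted p = 1.61e-08) and Uhrf1, which keeps DNA methylation through replication, by 3.19 ± 0.35 (adjusted p = 1.87e-08). Summed CPM of the 39 members other than Anln was 0.28 ± 0.022 times that of the S phase genes in the PIZ of saline mice at day 3 and 0.99 ± 0.13 times in the PIZ of kainate mice at day 3 (SD, n = 4). For the EZ of saline mice this ratio stood first at 0.54 ± 0.17 (day 3), then at 0.30 ± 0.022 (day 7) and last at 0.26 ± 0.030 (day 14). In the EZ of kainate mice the ratio began at 1.31 ± 0.13 at day 3 and went over 1.02 ± 0.36 at day 7 to 0.46 ± 0.17 at day 14.

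The regulators around the members were read by role, against the same shares of all genes called up. The shares called down were 8.61%, 11.9% and 1.57%. Of 17 genes of the anaphase-promoting complex and its cofactors, 1 was called up in the EZ at day 3, 2 at day 7 and 1 in the PIZ at day 3, with medians of 0.09, 0.07 and 0.02. Fbxo5, the inhibitor EMI1, was the gene called in each, at 2.01 ± 0.29 (adjusted p = 1.37e-06) in the EZ at day 3, while the cofactor Ube2s changed by 0.40 ± 0.09 (adjusted p = 0.000672), under the fold threshold. Of 15 genes in the list named for DREAM and MuvB, 4, 4 and 3 were called up, with medians of 0.26, 0.21 and 0.24. Rbl1, the pocket protein p107, changed by 2.33 ± 0.30 (adjusted p = 2.17e-07). E2f7, an E2F repressor that is in this list but is not a subunit of these complexes, changed by 2.85 ± 0.41 (adjusted p = 1.14e-06). Of 9 genes that switch mitotic entry, 7 rose in the EZ at day 3, 5 rose and 1 fell at day 7, and 5 rose in the PIZ at day 3. The gene that fell was Wee1, an inhibitory kinase of CDK1, at -0.79 ± 0.23 (adjusted p = 0.00303). Gtse1, a G2 and S phase protein, changed by 2.97 ± 0.39 (adjusted p = 2.96e-07) and Pkmyt1, the other inhibitory kinase of CDK1, by 1.46 ± 0.20 (adjusted p = 4.25e-07). Of 6 G1 cyclins and kinases, 5 rose and 1 (Ccnd2) fell in the EZ at day 3, with Cdk4 at 0.88 ± 0.12 (adjusted p = 3.67e-07) and Ccnd3 at 1.16 ± 0.17 (adjusted p = 1.74e-06). The summed level of this list after saline and kainate was 208 ± 16 and 404 ± 131 CPM in the EZ at day 3 (SD, n = 4). It was 188 ± 5.7 and 375 ± 141 CPM in the EZ at day 7, but 207 ± 31 and 244 ± 21 CPM in the PIZ at day 3. Of 7 CDK inhibitors, 4, 5 and 2 were called up, and none down. Cdkn1a (p21) changed by 2.90 ± 0.42 (adjusted p = 1.29e-06) and Cdkn2c (p18) by 1.74 ± 0.30 (adjusted p = 1.59e-05). Cenpw, Wee1 and Ccnd2 were named after their values were seen.

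**Figure D4:**
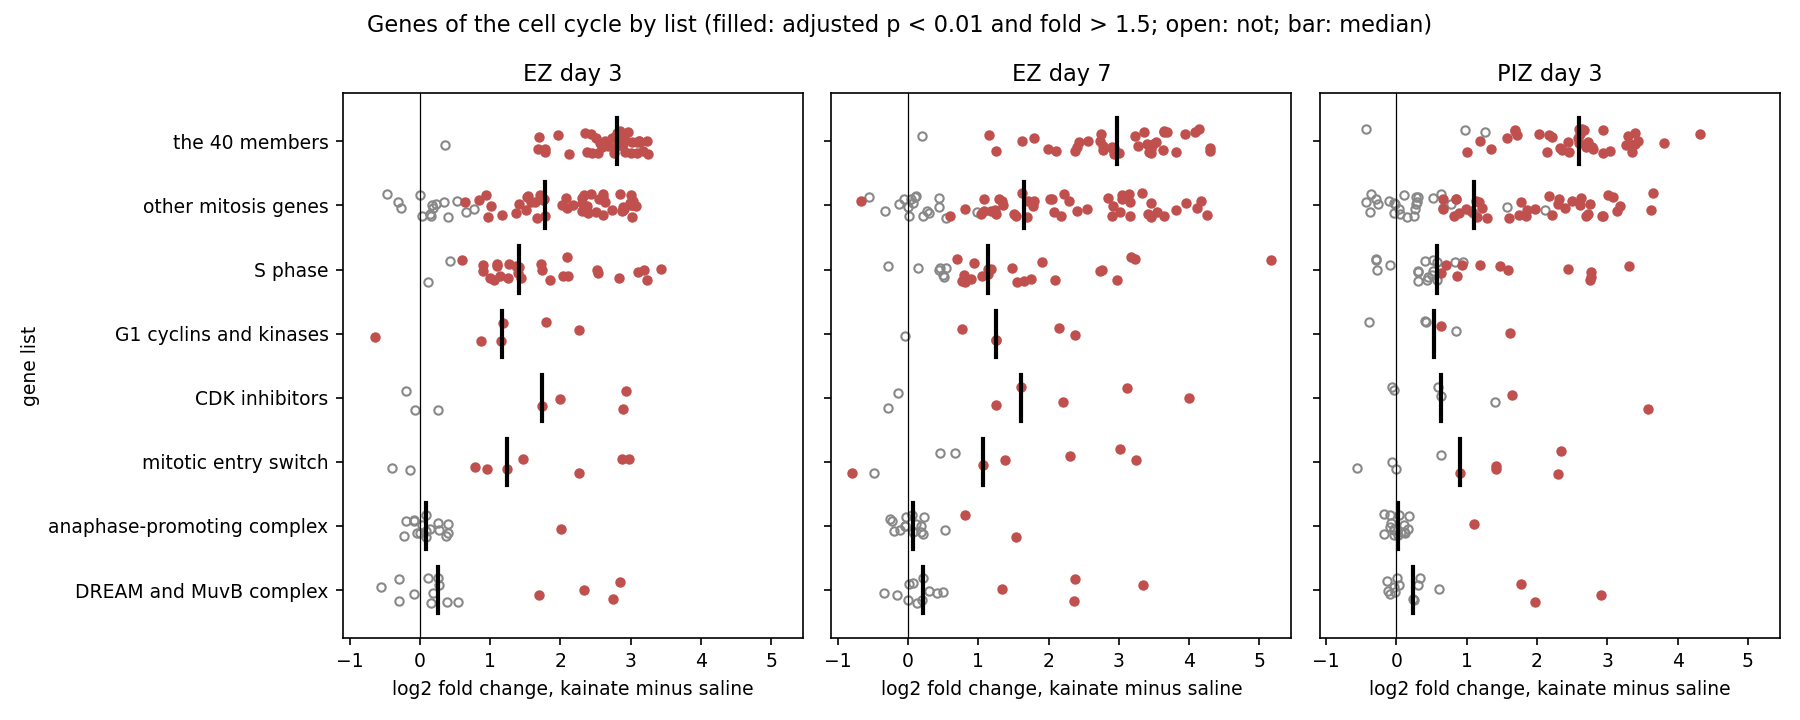
Log2 fold change of kainate minus saline for the 40 members and 7 lists of other cell cycle genes in the EZ at days 3 and 7 and the PIZ at day 3; each point is a gene, filled where the gene was a DEG, and the bar is the list median. The medians of the members lie at 2.81, 2.97 and 2.59, those of the S phase genes at 1.41, 1.13 and 0.57, and those of the anaphase-promoting complex at 0.09, 0.07 and 0.02.

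Markers of several cell types moved with the members, and the markers named here were picked after their values were seen. The shares of all genes called up and down are those given above for the cell cycle lists, with 2.32% up in the EZ at day 14. Of 8 microglia markers, 6 were called up in the EZ at day 3, 8 at day 7, 5 at day 14 and 8 in the PIZ at day 3, and their summed level in the PIZ at day 3 ran from 313 to 433 CPM after saline and from 977 to 1192 CPM after kainate. Of 8 neural stem cell and astrocyte markers, 5, 8, 3 and 5 were called up. Nes, nestin, changed by 2.81 ± 0.31 (adjusted p = 2.44e-08) and Vim, vimentin, by 3.23 ± 0.51 (adjusted p = 4.57e-06) in the EZ at day 3. All 5 oligodendrocyte precursor markers were called up in the EZ at days 3 and 7, with Olig1 at 1.53 ± 0.17 (adjusted p = 2.44e-08) at day 3, and 1 of 5 in the PIZ at day 3. Of 7 endothelium and pericyte markers 5, and of 5 fibroblast and meninges markers 5, rose in the EZ at days 3 and 7, and none of either list in the PIZ at day 3. Pdgfra is in the lists of both oligodendrocyte precursors and fibroblasts. Of 9 leukocyte markers 4 were tested and 2 rose in the EZ at days 3 and 7, with Ccr2 at 3.82 ± 0.46 (adjusted p = 8.96e-08) at day 3, and none in the PIZ at day 3. The T cell, B cell and cytotoxic markers Cd3e, Cd3g, Cd8a, Ms4a1 and Nkg7 were too low to be tested. Of 5 granule cell markers, 3, 2 and 2 fell in the EZ at days 3 and 7 and in the PIZ at day 3. Of 6 immature neuron markers, 1 fell in the EZ at day 3, Eomes, at -2.77 ± 0.62 (adjusted p = 0.000403), and none passed the test in the EZ at day 7 or the PIZ at day 3. In the PIZ none was called at day 7 (0.15% of all genes up), at a median log2 fold change of 1.19, and 1 rose at day 14 (0.00935% of all genes), at a median of 0.99. At day 7 the kainate effect on 2 of the 6 was lower in the EZ than in the PIZ by the test (2.88% of all genes). Of 5 CA pyramidal cell markers 2, 3 and 1 fell in the EZ at days 3 and 7 and the PIZ at day 3. Of 4 choroid plexus markers 1 rose and 1 fell in the EZ at day 3 and 1 fell at day 7, and of 3 blood markers none passed the test. The part of these cell types in the members' rise was not tested.

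The members varied together. Over the 48 libraries the median Pearson r of the 780 pairs of members was 0.93, and 0.67 after group means were removed. Each member but Anln had an r of at least 0.88 with the mean of the others, with Tpx2 and Mki67 highest at 0.99. The genes outside the members whose log2 CPM followed the members' mean most closely were Ckap2l, Uhrf1, Hmgb2, Lgals1, Knstrn, Rrm2, Aspm, Pclaf, Tubb6 and AI506816, with r between 0.98 and 0.99. The libraries share groups and depth, and these values are a description without a test.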

How the data were processed

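RNA was measured in the EZ and PIZ of 24 mice, giving 48 libraries in 12 groups of 4. The authors deposited 1 table of raw gene counts, in which they had trimmed reads with fastp 0.20.1, aligned them with HISAT2 2.2.1 to GRCm39 and counted them by strand with featureCounts of Subread 1.6.4 on Gencode annotation, with multi-mapping reads counted at their primary alignment. Versions are from the submitters' processing notes, which also name R 4.1.1 and DESeq2 1.32.0. Reads shared by near-identical gene copies may therefore be counted at one copy.

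Here the counts were tested with edgeR 4.0.16 (R 4.3.3) after filterByExpr and TMM scaling, by quasi-likelihood tests of contrasts between 12 group means fitted to all 48 libraries. P-values were adjusted by the Benjamini-Hochberg method over the 21390 genes tested, which held 99.9% of counts, and a DEG needed an adjusted p below 0.01 together with a more than 1.5-fold change. The standard error (SE) is the log2 fold change divided by the square root of its F statistic. Log2 CPM used a prior count of 2. Exon lengths for RPKM and gene symbols came from a later Gencode release, which matched 54749 of 55357 identifiers (98.9%). With these totals, from 17762656 to 25712975 counts a library, low members rest on few counts.

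The 40 members and all lists were chosen with earlier results of these data known. All members may be named. Values in each library of at least 1 comparison are given for the most abundant member of each of 8 roles, for the 3 members of smallest p in each of 3 comparisons (EZ day 3, EZ day 7, PIZ day 3), and for the member of largest p in EZ day 3. From each other cell cycle list the 2 genes of smallest p in EZ day 3 are named, and the 10 other genes most like the members. The comparisons of kainate EZ with kainate PIZ were added after the data were seen.

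The EZ and PIZ libraries of a mouse come from the same animal. Their deviations from the group means had a correlation of -0.05 to 0.38 over 24 mice, and a fit with mouse as a block was made for comparisons of the sides. Animals of a group are separate mice. Results were recomputed with limma-voom and quality weights (limma 3.58.1), DESeq2 1.42.0, only the groups compared, other scalings, no filter, an adjusted p under 0.05, a test against a fold change of 1.5 (glmTreat), and leaving out each mouse. The edgeR step was tested on simulated data. Promoters were read from RefSeq on GRCm38.p6. The results of 1 marker list are not reported here.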

Additional observations from a re-analysis of the deposited data

Results flagged for a closer look

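In groups of 4 libraries, 1 sample stood apart from the other 3 in 20 of 204 groups tested (Dixon's criterion), where chance alone flags about 1 in 20. The 204 are 16 members and the sum of the 39, each read in the same 12 groups of libraries. Members vary together, so these tests are not independent and the 2 shares cannot be set against each other. Kainate mouse 27 at day 14 was the highest of its group for several members in the EZ, at 5.44 CPM for Ccna2, 12.9 CPM for Top2a, 5.12 CPM for Tpx2, 0.952 CPM for Ttk and 6.71 CPM for Cdk1. Its sum of the 39 members other than Anln was 160 CPM in the EZ and 112 CPM in the PIZ, and its Cdk1 in the PIZ was 1.96 CPM. Kainate mouse 38 at day 3 was the lowest of its group in the PIZ, at 2.87 CPM for Knl1, 4.20 CPM for Kif20a and 220 CPM for the sum. Kainate mouse 21 at day 7 was the lowest in the PIZ for Cdc20, at 0.588 CPM, and for the sum, at 57.9 CPM, and the highest for Anln, at 20.9 CPM. Birc5 was lowest at 0.877 CPM in the PIZ of kainate mouse 26 at day 7. Among saline mice, Ccna2 was highest in the PIZ of mouse 29 at day 3, at 1.80 CPM. At day 7, mouse 89 was lowest for Birc5 in the EZ, at 0.424 CPM, and for Tpx2 in the PIZ, at 1.19 CPM. Mouse 33 was highest for Aurka in the EZ, at 1.09 CPM, and lowest for Plk1, at 1.13 CPM.

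The kainate effect at day 7 was larger in the EZ than in the PIZ, by the test of the difference in edgeR, for 13 members (7% of all genes). The log2 differences were 1.88 for Cenpe, 1.97 for Kif11, 1.97 for Aurka, 2.04 for Ect2, 2.06 for Plk1, 2.11 for Espl1, 2.19 for Ccna2, 2.31 for Foxm1, 2.55 for Birc5, 2.55 for Top2a, 2.69 for Mki67, 2.80 for Nusap1 and 3.48 for Ttk. In the EZ the effect was smaller at day 14 than at day 7 for 3 members (0.15% of all genes). Their log2 differences were -3.06 for Ttk, -2.50 for Foxm1 and -2.10 for Aurka. None of the 13 and none of the 3 was called when kainate mouse 21 of day 7 was left out. The 13 became 31 and 20 without kainate mice 23 and 26, 2 without kainate mouse 35, and 1 to 5 without a saline mouse. The 3 became 0 without any single mouse of these groups other than kainate mice 23, 26 and 27.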

How the results depend on the processing

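The rises in the EZ at days 3 and 7 and in the PIZ at day 3 stayed within 1.5 times their counts under every alternative run, at 39 to 39, 38 to 39 and 36 to 37 members without 1 mouse. For the other comparisons the cause of a change was not tested. In the EZ at day 14 the 1 call became 2 with DESeq2 (3.41% of all genes called up), 3 at an adjusted p under 0.05 (4.64%), 0 with glmTreat or only the groups compared, and 0 to 2 without 1 mouse. In the PIZ at day 7 the 0 calls became 2 with DESeq2 (0.753% of all genes up), 5 with limma-voom (3.23%), 1 with only the groups compared (0.661%), 2 at an adjusted p under 0.05 (0.851%) and 0 to 1 without 1 mouse. The difference of the effects between EZ and PIZ at day 7 gave 13 members, 26 with DESeq2 (9.03% of all genes), 32 with limma-voom (14.3%), 2 with only the groups compared (4.34%), 31 at an adjusted p under 0.05 (13.1%), 0 with glmTreat (0%), 8 with mouse as a replicate block (6.95%), and 0 to 31 without 1 mouse. At day 3 limma-voom gave 1 (8.78% in either direction). The fall of the effect in the EZ from day 7 to day 14 gave 3 members (0.15% of all genes down), 23 with DESeq2 (2.53%), 36 with limma-voom (18.2%), 31 at an adjusted p under 0.05 (7.28%), 0 with glmTreat, with only the groups compared or with no filter, and 0 to 33 without 1 mouse. In the PIZ from day 3 to day 7 only the groups compared gave 2 down (0.726%). Saline EZ against PIZ at day 3 gave 2 with DESeq2 (0.112%) and 1 with limma-voom (0.463%), and saline EZ at day 3 against day 14 gave 8 with limma-voom (0.612%). Kainate EZ against PIZ at day 3 gave 37 members (5.04% of all genes up), and 29 with the block (5.75%). It gave 0 with only the groups compared (0.239%) or glmTreat (0.739%), and 0 to 36 without 1 mouse. At day 7 it gave 39 members (18%), and 38 with the block (17.5%). The count there was 8 with only the groups compared (7.26%) and 34 to 39 without 1 mouse. The block changed no other count by over 1.5 times. Of 96 results for single genes, 13 settings turned a direction, all among values that had not passed the test: Anln in the EZ at day 7 (-0.075 without kainate mouse 21, and the range without 1 mouse was -0.075 to 0.406), Anln in the PIZ at day 7 (-0.041 and -0.114 without kainate mouse 21 and saline mouse 34, range -0.114 to 0.297), Ttk in the PIZ at day 7 (-0.0167 without kainate mouse 26, range to 0.283), Cdc20 in the EZ at day 14 (-0.23 with limma-voom, -0.0104 without kainate mouse 27, range to 0.945), Nuf2 in the PIZ at day 14 (-0.17 with limma-voom, -0.145, -0.00534 and -0.0885 without kainate mouse 27, saline mouse 24 and saline mouse 39, range to 0.208) and Aurka in the PIZ at day 14 (-0.0365 with limma-voom, -0.0857 and -0.00993 without kainate mouse 27 and saline mouse 31, range to 0.268). Ttk rested on 4 or 5 counts in the EZ of saline mice at day 7.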
